A study of Mus musculus with 16 samples.

Results

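Regions marked by H3K27me3 in young hematopoietic stem cells (HSCs), lying away from promoters and without a counterpart in aged HSCs, numbered 38919. HSCs are the rare marrow cells that sustain blood formation. The regions were selected on measured values, namely their presence in the young H3K27me3 list and their absence from the aged list, so neither of these is a result here. A region was taken when it lay on chromosomes 1 to 19, was at most 2000 bp wide, shared no base with an aged H3K27me3 region and lay more than 1 kb from every protein-coding start site. Of the 50640 young H3K27me3 regions on these chromosomes, 47901 were at most 2000 bp wide, 41808 of these had no aged counterpart, and 38919 (76.9% of 50640) were also distal. They are called young-only distal regions below. Of all young H3K27me3 regions on these chromosomes, 83.3% had no overlap in the aged list, a share that belongs to the selection and from which nothing is read.

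The study profiled H3K27me3, H2AK119ub1 and H3K4me3 by chromatin immunoprecipitation and sequencing (ChIP-seq) in HSCs of C57BL/6 mice. Young HSCs came from 10-week-old mice and aged HSCs from 20-month-old mice, and both were sorted from bone marrow as cells positive for Sca-1, c-kit and CD150 and negative for lineage markers (Lin), CD34, CD48, Flt3 and what the labels spell IL-7, which the methods give as an antibody to its receptor. By the labels there were 16 libraries in 8 groups, 2 per mark at either age and 2 of input DNA at either age. The regions analysed here came as 1 pooled list per mark and age, 6 lists with 122027 regions in all, so there were no replicate values and no difference between the ages could be tested.

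H3K27me3 is the trimethylation of lysine 27 of histone H3. It is written by Polycomb repressive complex PRC2 and goes with silent genes, most of all the CpG-rich promoters of developmental regulators, from which it can spread over neighbouring chromatin. H2AK119ub1, a ubiquitin on histone H2A, is written by PRC1 and often lies at the same places, whereas H3K4me3 marks active or poised promoters. In blood stem cells the Polycomb complexes keep genes of other lineages and of later differentiation steps silent.

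Sequences of 5 young-only distal regions are shown, read on the plus strand of the mm10 genome. The first 3 belong to the region with the highest −log10 q-value in intergenic DNA, in an intron and in an exon. The other 2 were chosen after their values were seen. One had the highest −log10 q-value among the regions that also carried H2AK119ub1 at both ages. The last had the second highest among those that carried H3K4me3 in young HSCs, after a region near Sema6a whose sequence is not shown. The −log10 q-value is the caller's measure of how far a region stood above background after adjustment for multiple testing. Capitals mark CpG dinucleotides, or, in the first 2, which hold no CpG, stretches of TG repeated at least 3 times.
Intergenic, chr5:139572913-139573185: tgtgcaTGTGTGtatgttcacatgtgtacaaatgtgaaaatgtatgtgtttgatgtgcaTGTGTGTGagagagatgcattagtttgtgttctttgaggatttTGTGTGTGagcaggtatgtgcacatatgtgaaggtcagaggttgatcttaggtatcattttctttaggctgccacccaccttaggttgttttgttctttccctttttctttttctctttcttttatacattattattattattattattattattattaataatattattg
Intron of Mb, chr15:77032224-77032496: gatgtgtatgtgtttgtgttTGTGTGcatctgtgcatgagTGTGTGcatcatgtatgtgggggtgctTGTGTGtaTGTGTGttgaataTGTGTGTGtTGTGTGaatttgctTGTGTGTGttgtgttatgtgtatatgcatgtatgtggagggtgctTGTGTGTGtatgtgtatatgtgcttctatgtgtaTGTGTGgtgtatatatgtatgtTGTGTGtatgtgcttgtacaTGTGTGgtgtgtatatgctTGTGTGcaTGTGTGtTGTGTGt
Exon of F11, chr8:45241412-45241677: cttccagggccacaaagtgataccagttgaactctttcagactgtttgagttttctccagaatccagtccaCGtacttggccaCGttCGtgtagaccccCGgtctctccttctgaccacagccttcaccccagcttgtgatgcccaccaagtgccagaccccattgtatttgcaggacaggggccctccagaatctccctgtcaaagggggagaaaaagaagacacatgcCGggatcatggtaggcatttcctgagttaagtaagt
Intron of Slc34a1, with H2AK119ub1 at both ages, middle of the region, chr13:55409496-55409795: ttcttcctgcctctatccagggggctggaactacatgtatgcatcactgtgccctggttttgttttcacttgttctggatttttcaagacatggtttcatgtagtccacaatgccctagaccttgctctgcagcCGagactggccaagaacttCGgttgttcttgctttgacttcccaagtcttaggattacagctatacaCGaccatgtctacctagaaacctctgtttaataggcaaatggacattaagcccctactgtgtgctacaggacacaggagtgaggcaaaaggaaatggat
Intron of Adamts9, with young H3K4me3, middle of the region, chr6:92786579-92786878: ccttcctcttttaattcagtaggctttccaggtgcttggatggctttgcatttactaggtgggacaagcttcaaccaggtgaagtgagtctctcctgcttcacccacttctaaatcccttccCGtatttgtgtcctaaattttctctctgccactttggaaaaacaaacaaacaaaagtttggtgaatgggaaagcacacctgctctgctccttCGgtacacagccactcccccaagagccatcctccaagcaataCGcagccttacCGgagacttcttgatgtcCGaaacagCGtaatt

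The intergenic region lay 29015 bp from the nearest start site, that of Uncx, a homeobox gene of the developing skeleton and nervous system. Its fold enrichment over background was 5.41 and its −log10 q-value 7.74, the highest of all young-only distal regions by both measures. It held 3 TG stretches and no CpG, 74.0% of its bases were masked as repeats in the genome sequence, and the nearest aged H3K27me3 region lay 5514 bp away. The intron region was in Mb, which encodes myoglobin, 9437 bp from its start site, with an enrichment of 4.56-fold and a −log10 q-value of 6.91. It held 14 TG stretches, and 100% of its bases were masked as repeats. The exon region covered coding sequence of F11, the gene of coagulation factor XI, at 4.73-fold and a −log10 q-value of 5.74. It held 5 CpG, and an aged H3K27me3 region lay 535 bp away.

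The region in Slc34a1, a renal phosphate transporter gene, had an enrichment of 4.89-fold and lay 562 bp from an aged H3K27me3 region. The region in Adamts9, which encodes a secreted protease, was 1433 bp wide, and the part shown held 6 CpG. Its enrichment was 4.07-fold at a −log10 q-value of 4.24 (4.12-fold and 4.54 for the region near Sema6a), and the nearest aged H3K27me3 region lay 26725 bp away.

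Long TG repeats were searched for in all members. The motif was 6 repeats of TG, TGTGTGTGTGTG, or CACACACACACA on the other strand, in the middle 200 bp of each region. It is longer than any TG stretch of the 2 strongest regions, which do not hold it. It was found in 1939 young-only distal regions (4.98%, 95% interval 4.77 to 5.20) and in 5.06% (4.48 to 5.71) of the distal regions kept at 20 months, against 3.14% of all 200 bp tiles of these chromosomes over 1 kb from protein-coding start sites. Among young-only distal regions with a −log10 q-value under 2 the share was 4.59% (4.33 to 4.87), and among those with at least 4 it was 7.94% (5.86 to 10.7, 39 of 491). A run of 6 GA repeats, GAGAGAGAGAGA or TCTCTCTCTCTC, was in 2.09% (1.95 to 2.24) of the regions against 1.39% of the tiles. Reads from simple repeats can align to several places, and their part in the enrichment of these regions was not tested. Intervals here and below are Wilson 95% intervals over regions. They cover counting error only, treat neighbouring regions as independent, which they are not, and say nothing of the spread between mice or libraries.

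As measured in the young list, the regions were short and weakly enriched. Their median width was 362 bp (quartiles 255 and 541 bp), their median enrichment 3.06-fold (2.90 and 3.28) and their median −log10 q-value 1.88 (1.57 and 2.34). For comparison, the 4878 regions that met the same width and distance limits but overlapped an aged region, called kept distal regions below, had a median width of 728 bp, a median enrichment of 3.25-fold and a median −log10 q-value of 2.35. A −log10 q-value under 2 was found in 22580 of the young-only distal regions (58.0%). The lists differed in the lowest values they admitted. The young list went down to a −log10 p-value of 2.86 and the aged list to 3.40, although the lowest −log10 q-value was about the same (1.00 and 1.01), and 36870 of the regions (94.7%) lay at or above the lowest aged −log10 p-value. The lists hold no read counts, so the depth behind these values is unknown.

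Among all 43797 narrow distal young regions, the share without an aged counterpart was lower where the young signal was stronger or wider. It was 93.7% (93.4 to 94.0) at a −log10 q-value under 2, 85.5% (84.9 to 86.0) from 2 to 3, 75.5% (74.0 to 76.9) from 3 to 4 and 66.1% (62.6 to 69.4, 491 of 743 regions) from 4 up. By width it was 96.1% (95.8 to 96.4) under 300 bp and 58.2% (56.6 to 59.7) from 1000 to 2000 bp. These shares belong to the contrast that chose the regions and are given as a description.

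The regions nearest to the limits of the rule, taken or left out, were as follows. The widest region taken measured 2000 bp, near Kcnk18, and the narrowest left out measured 2002 bp, near Asic4, with enrichments of 3.66-fold and 3.63-fold. The region taken nearest to a start site was 1001 bp from Sbf2 (3.02-fold), and the last one left out was 1000 bp from Gjd3 (3.30-fold). A region near Kcnip1 (3.51-fold) ended at the very base next to an aged region, with 0 bases between them, and was taken.

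Young-only distal regions were spread over intergenic DNA, introns and exons nearly as the distal genome is. By their midpoints, 20560 regions (52.8%, 95% interval 52.3 to 53.3) were intergenic, 16964 (43.6%, 43.1 to 44.1) intronic and 1395 (3.58%, 3.40 to 3.77) exonic. Of all bases of these chromosomes over 1 kb from protein-coding start sites, 53.6% were intergenic, 42.6% intronic and 3.75% exonic. The members thus differed from the bases by about 1 percentage point or less in each class. The exonic share was 6.97% when any shared base counted and 2.29% with protein-coding genes alone. Among the kept distal regions the exonic share was higher, at 5.58% (4.97 to 6.26), and the intergenic share was 51.3% (49.9 to 52.7). The 3572 aged-only distal regions, chosen by the same rule with the ages exchanged, were 3.05% (2.54 to 3.67) exonic and 53.2% (51.6 to 54.9) intergenic. Of the narrow distal young regions in exons 83.7% (81.8 to 85.4) were absent from the aged list, of those in introns 89.0% (88.5 to 89.4) and of those in intergenic DNA 89.2% (88.7 to 89.5), which restates the same split and was not tested.

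**Figure D1:**
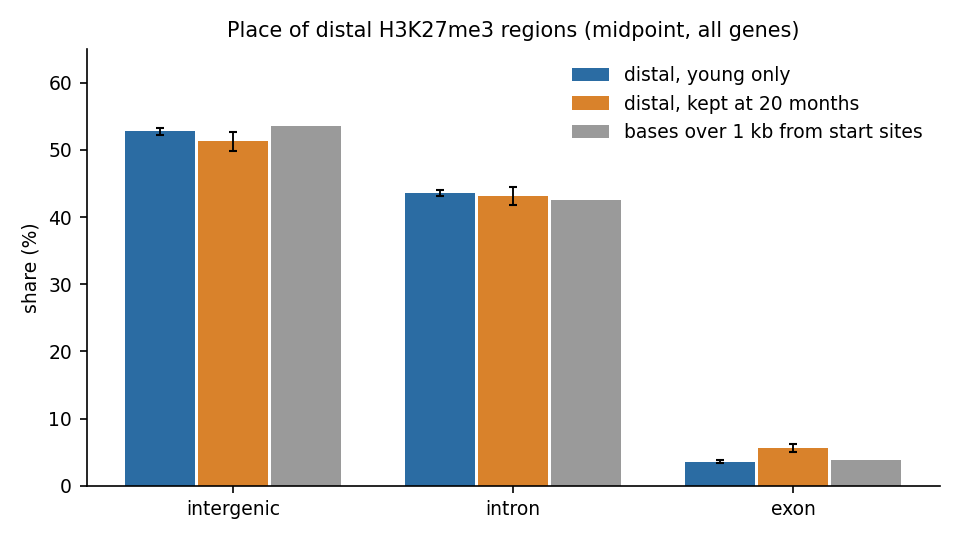
Share (%) of regions, or of bases, in intergenic DNA, introns and exons for the 38919 young-only distal regions (blue), the 4878 distal regions kept at 20 months (orange) and the autosomal bases over 1 kb from protein-coding start sites (grey). Error bars are Wilson 95% intervals over regions. The blue and grey bars are close in every class, and the orange exon bar is higher, at 5.58%.

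Within genes, 13918 regions lay in introns of protein-coding genes (35.8%, against 36.4% of the distal bases) and 3046 in introns of noncoding genes alone (7.83%, 7.56 to 8.10, against 6.24%). The exonic regions fell into 425 in coding sequence (1.09%), 468 in untranslated parts of protein-coding genes (1.20%) and 502 in exons of noncoding genes (1.29%). Enrichment and width did not depend much on the place. The median enrichment was 3.06-fold in intergenic DNA, 3.06-fold in introns and 3.09-fold in exons, and the median widths were 361, 361 and 383 bp. The 3 widest regions were an intergenic one near Kcnk18 (2000 bp), one in an intron of Gad1, the gene of a GABA-making enzyme (2000 bp), and one in an intron of Cyp4f40 (1992 bp). The regions with the highest enrichment after the one near Uncx were intergenic as well, near Enpp7 (5.06-fold) and Adamts8 (4.97-fold).

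The median distance to the nearest protein-coding start site was 35352 bp, with quartiles of 10289 and 104588 bp. Between 1 and 10 kb lay 9535 regions (24.5%, 24.1 to 24.9), 9769 (25.1%) lay at 100 to 500 kb and 348 (0.894%) farther away. The kept distal regions were nearer, with a median of 20978 bp and 36.2% (34.9 to 37.6) between 1 and 10 kb. Start sites of noncoding genes, which the rule did not use, were within 1 kb of 1207 young-only distal regions (3.10%, 2.93 to 3.28).

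The regions were closely packed. Another young-only distal region lay within 1 kb of 16688 regions (42.9%, 42.4 to 43.4), within 5 kb of 30122 (77.4%, 77.0 to 77.8) and within 20 kb of 35439 (91.1%, 90.8 to 91.3). The median gap to the nearest other one was 1301 bp, whereas 38919 regions spread evenly over the same chromosomes would start 61.6 kb apart. No gap was under 241 bp. Packing was alike in intergenic DNA, introns and exons, where 77.7%, 77.1% and 77.1% of the regions had another within 5 kb. Counting any other young H3K27me3 region as a neighbour, 82.0% (81.6 to 82.3) of the young-only distal regions had one within 5 kb, against 95.7% (95.1 to 96.3) of the kept distal regions, and the other 7021 stood alone. The share with another young-only distal region within 5 kb was 53.1% with young regions joined over 1 kb, 47.1% with a shortened young list of 10291 such regions and 21.3% among the 3148 whose −log10 q-value reached 3, where fewer regions leave fewer neighbours.

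**Figure D2:**
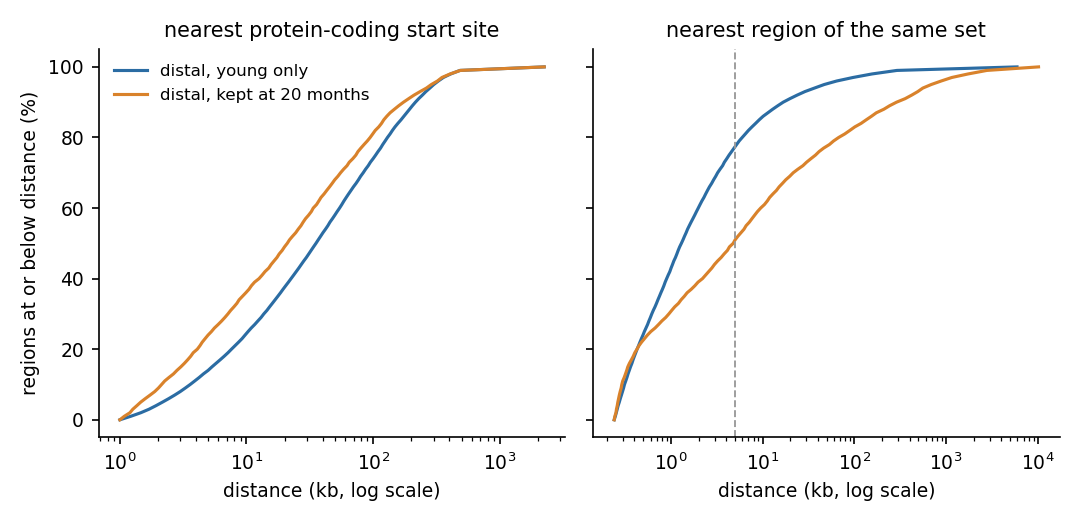
Cumulative share of regions (%) by distance in kb (log scale) to the nearest protein-coding start site (left) and to the nearest region of the same set (right; the dashed line is at 5 kb). Young-only distal regions (blue) lay farther from start sites than kept distal regions (orange). On the right, 77.4% of the blue and 50.9% of the orange set had a neighbour of their own set within 5 kb, in sets of 38919 and 4878 regions.

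Chained over gaps of at most 5 kb, the regions formed 16374 chains, of which 8797 were single regions and 7577 held at least 2. Chains of 10 or more regions numbered 439, held 6157 regions (15.8%, 15.5 to 16.2) and had a median length of 24.3 kb. Many of the longer chains ran past aged H3K27me3 regions, counted here whether or not a young region lay at the same place. An aged H3K27me3 region lay inside 302 of the 439 chains of 10 or more (68.8%), 621 of 1459 chains of 5 to 9 (42.6%) and 892 of 5679 chains of 2 to 4 (15.7%). Longer chains cover more bases, and their length was not taken out of these shares. Seen from the aged list, 11288 of its 15926 regions on these chromosomes (70.9%, 70.2 to 71.6) had a young-only distal region within 5 kb.

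The chain with the most regions held 54 in 104 kb around Kcna5, a voltage-gated potassium channel gene (chr6:126507955-126612438). Its regions covered 25.3% of the chain at a median enrichment of 3.10-fold. The young list held 57 regions there and the aged list 6, and 2 aged H2AK119ub1 regions lay in it. The next chain held 47 regions in 91.6 kb on chromosome 9, 146800 bp from the start site of Trim29 and without a protein-coding gene, with 51 young and 5 aged H3K27me3 regions. The third held 44 regions in 93.7 kb within Asic2, with 47 young and 6 aged regions. These 3 chains were also the longest. A chain of 36 regions on chromosome 4 (69.9 kb) and one of 34 on chromosome 15 (80.5 kb) held 2 aged regions each, and their nearest protein-coding start sites, 3100002H09Rik and Mroh5, were 174078 and 287539 bp away.

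**Figure D3:**
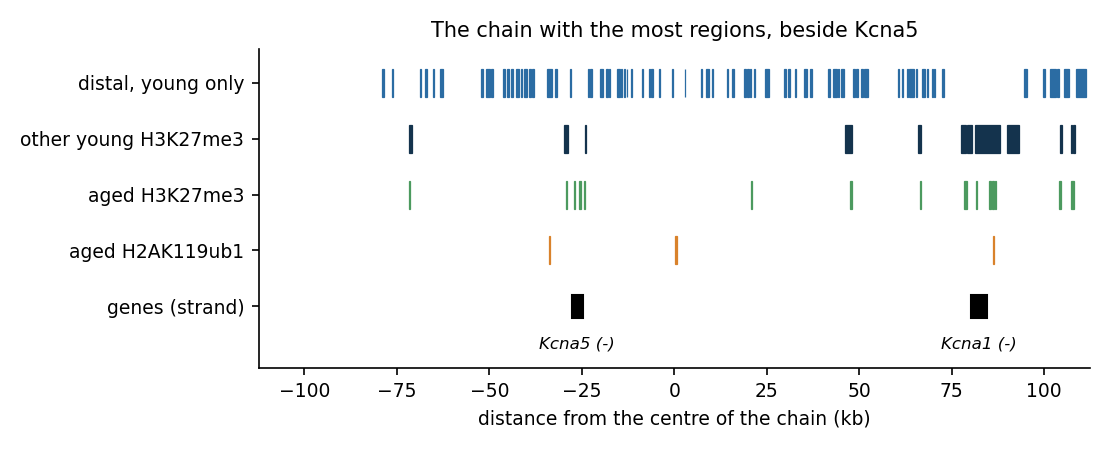
Map of the chain with the most young-only distal regions (54 in 104 kb). The horizontal axis is the distance from the centre of the chain in kb, rows are lists of regions drawn to scale, and black boxes are protein-coding genes with their strand. Young-only distal regions (blue) run on both sides of Kcna5, while 6 aged H3K27me3 regions (green) lie inside the chain, 4 of them in Kcna5 or within 2 kb of it.

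Aged H3K27me3 was often close by. The median gap from a young-only distal region to the nearest aged region was 11016 bp. Within 1 kb of an aged region lay 5066 regions (13.0%, 12.7 to 13.4), within 10 kb 18799 (48.3%, 47.8 to 48.8), and 6115 (15.7%, 15.4 to 16.1) had none within 100 kb. The regions within 1 kb were wider (median 432 bp), more enriched (3.13-fold) and nearer to start sites (median 21063 bp) than those without an aged region within 100 kb (320 bp, 3.02-fold and 60834 bp).

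The regions were unevenly placed along the genome. Over all 19 chromosomes there were 16.2 per Mb, with 32.6 on chromosome 11, 30.2 on chromosome 9 and 26.8 on chromosome 7, and only 6.18 on chromosome 3, 6.38 on chromosome 10 and 7.71 on chromosome 16. The aged list, with 6.65 H3K27me3 regions per Mb on average, had 10.6 per Mb on chromosome 11 and 2.48 on chromosome 16. Chromosome 9 stood apart by the number of young-only distal regions per aged region, 3.82, against 1.77 to 3.11 on the other chromosomes.

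**Figure D4:**
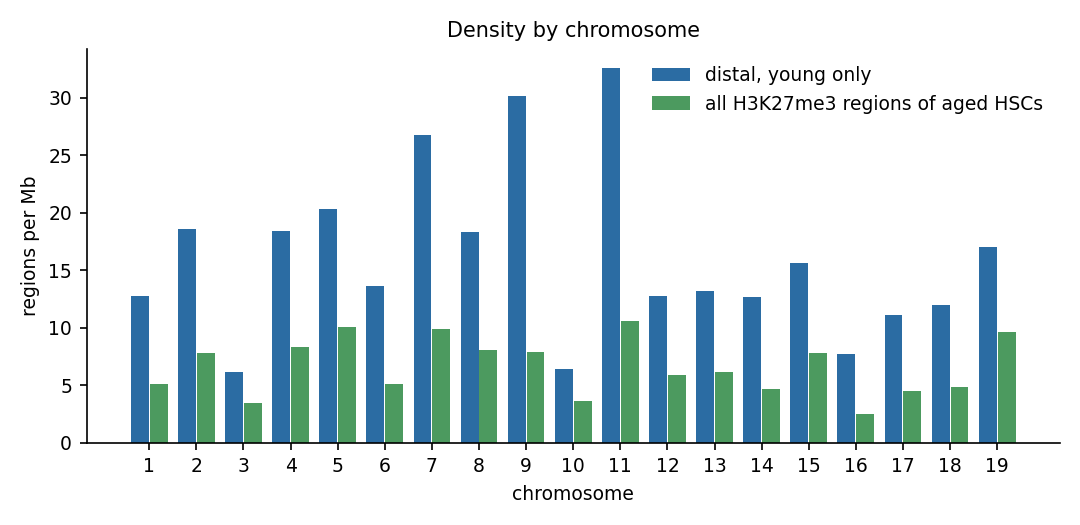
Regions per Mb of sequenced bases on each of chromosomes 1 to 19 for young-only distal regions (blue) and for all aged H3K27me3 regions (green). Chromosomes 7, 9 and 11 stand highest in blue, at 26.8, 30.2 and 32.6 per Mb, and chromosomes 3, 10 and 16 lowest.

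In windows of 1 Mb the spread was wider still. Of 2403 windows, 584 (24.3%) held none of the regions, the median window held 5 and the fullest 289, and the fullest 10% of the windows held 53.7% of the regions. Density rose with GC content. With the windows split into 4 equal classes by GC content, there were 1.79 regions per Mb in the lowest class (35.7 to 39.1%), 7.83 and 18.1 in the next, and 37.3 in the highest (44.3 to 53.7%). Spearman's rho over windows was 0.649 with GC content, 0.428 with the number of protein-coding genes and 0.818 with the number of aged H3K27me3 regions. Neighbouring windows are not independent and the measures share base composition and mappability, so these are descriptions.

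The fullest window was chr11:81000001-82000000, where 280 of its 289 regions overlapped Asic2, which encodes a subunit of acid-sensing ion channels. It held 318 young H3K27me3 regions and 49 aged ones. The second (256 regions, chr4:125000001-126000000) held Grik3, a kainate-type glutamate receptor gene with 68 regions in its body, and 120 aged regions. The third (242 regions, chr7:138000001-139000000) held Tcerg1l with 52. The fourth (239 regions, chr11:71000001-72000000) held Wscd1 with 16, and the fifth (225 regions) adjoined the second (chr4:124000001-125000000). Aged regions numbered 23, 42 and 100 in these last 3.

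The bases of the regions were only mildly different from their surroundings. Median GC content was 45.6% (order-statistic interval 45.6 to 45.7), above the 41.9% of the 19 chromosomes but close to the 45.3% of the 10 kb on each side of the regions. A region had a higher GC content than its own 10 kb flanks in 51.4% (50.9 to 51.9) of cases, and the median difference was 0.168 percentage points. The kept distal regions had a median GC content of 46.6%, and young-only H3K27me3 regions within 1 kb of a start site, the young-only promoter regions, 51.2%. Aged-only distal regions had 46.2% (46.0 to 46.5).

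CpG-rich DNA, the textbook landing place of Polycomb complexes, was rare among the regions. The rule left out regions within 1 kb of protein-coding start sites, so the contrast with promoter regions follows in part from the selection. Observed over expected CpG, a ratio, had a median of 0.174 (0.172 to 0.175), near the 0.194 of the chromosomes as a whole, against 0.207 (0.203 to 0.210) in the kept distal and 0.334 (0.321 to 0.347) in the young-only promoter regions. A GC content above 55% with a ratio above 0.6 was found in 152 young-only distal regions (0.391%, 0.333 to 0.458), 35 kept distal regions (0.718%, 0.516 to 0.996) and 355 young-only promoter regions (12.3%, 11.1 to 13.5). The share was 0.427% (0.370 to 0.493) of all 43797 narrow distal young regions and 0.308% (0.172 to 0.551) of aged-only distal regions. Their median ratios were 0.178 and 0.182. Of the 152, 43 carried aged H2AK119ub1, 12 carried young H3K4me3, and 25 lay within 1 kb of a noncoding start site. Exonic regions had the highest ratio (median 0.240) of the 3 places. Bases masked as repeats made up a median of 13.1% and a mean of 18.4% of a region, while 33.5% of all bases of the chromosomes are masked. The median and mean were similar in kept distal regions (15.1% and 18.7%) and in aged-only distal regions (12.6% and 18.5%).

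Few of the regions carried the other marks in the lists. Aged H2AK119ub1 overlapped 1044 of them (2.68%, 2.53 to 2.85), against 9.31% of all young autosomal H3K27me3 regions and 15.6% (14.6 to 16.6) of the kept distal regions. Young H2AK119ub1 overlapped 183 (0.470%, 0.407 to 0.543), against 2.54% and 3.46% (2.99 to 4.02), and 58 regions had both. Aged-only distal regions were close to the young-only distal ones, at 3.08% (2.56 to 3.70) for aged and 0.420% (0.255 to 0.692) for young H2AK119ub1. Of all 43797 narrow distal young regions, most of them young-only, 4.12% overlapped aged and 0.804% young H2AK119ub1. The aged H2AK119ub1 share was 5.50% among the 3148 regions of the stricter q-value, 4.50% with a shortened young list, 1.68% with young regions joined over 1 kb and 7.09% counting the mark within 1 kb. The aged H2AK119ub1 list covered 0.300% and the young one 0.0393% of the bases, so these counts also follow the lengths of the lists. Kept distal regions were wider (median 728 against 362 bp), and width was not taken out of these shares.

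The regions with aged H2AK119ub1 differed from the rest in place and composition. They were nearer to start sites (median 9762 bp, 8323 to 11161), wider (558 bp), higher in GC content (49.3%, 48.9 to 49.7) and nearer to an aged H3K27me3 region (median gap 2431 bp) than all young-only distal regions. Aged H2AK119ub1 was found on 6.22% (5.59 to 6.92) of the regions within 1 kb of an aged H3K27me3 region, on 1.44% (1.26 to 1.65) of those at 10 to 100 kb and on 2.32% (1.97 to 2.73) of those with none within 100 kb.

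H3K4me3 was rarer still. Young H3K4me3 overlapped 68 of the regions (0.175%, 0.138 to 0.221), against 1.43% of all young autosomal H3K27me3 regions, and aged H3K4me3 overlapped 36 (0.0925%, 0.0668 to 0.128), against 0.723%. All young regions include those at promoters, which the rule left out, so these contrasts follow in part from the selection. For young and aged H3K4me3, the shares were 0.247% and 0.137% of all 43797 narrow distal young regions. They were 0.820% and 0.492% of kept distal regions, and 0.168% and 0.0560% of aged-only distal regions. The young H3K4me3 share of young-only distal regions was 0.445% under the stricter q-value and 0.650% counting the mark within 1 kb. The 68 regions had a median GC content of 51.9% (49.8 to 54.5), an observed to expected CpG ratio of 0.513 (0.431 to 0.573) and a median distance to protein-coding start sites of 7658 bp. Noncoding start sites lay within 1 kb of 7 of them.

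Genes with such a region in the body were longer (median 42.7 kb) than genes without (14.9 kb). A young-only distal region overlapped the body of 2858 of 20807 protein-coding genes (13.7%, 13.3 to 14.2), and 14997 regions (38.5%) lay in such a body. Of the 2858 genes, 1096 held exactly 1 region, 714 at least 5 and 362 at least 10, and 1264 (44.2%) had no aged H3K27me3 region in the body. Of all 20807 protein-coding genes, 2324 held an aged region in the body, so most genes had none. Gene length was not taken out of this contrast. With the genes split into 4 equal classes by length, 253 of the 5202 shortest (up to 6.37 kb) and 1405 of the 5202 longest (from 43.8 kb) held a region, although the number of regions per Mb of body was 19.3 and 15.9.

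Asic2 held the most, 310 regions in 1088 kb, where the young list had 342 regions and the aged list 55. Fgfr2, a fibroblast growth factor receptor gene, held 277 and Gm20388 held 214, but their annotated bodies run over 2961 and 4435 kb and overlap 30 and 73 other protein-coding genes, so the regions need not belong to them. Rbfox3, which encodes the neuronal splicing factor NeuN, held 122 regions in 422 kb, Camta1 109, and Shank2, a scaffold of excitatory synapses, 107 in 423 kb. Kcnma1, the pore of a calcium-activated potassium channel, held 94 regions with only 5 aged regions in its body. Kirrel3, an adhesion protein gene of the nervous system, held 90, Myo16, an unconventional myosin gene, 84, and Csmd2 held 74.

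By density the order was different. Among 679 gene bodies of at least 20 kb with at least 5 regions, the densest was Myh13, a myosin heavy chain gene, with 28 regions in 49.9 kb (56.1 per 100 kb). Chrna4, a nicotinic acetylcholine receptor subunit, followed with 47.8 per 100 kb, Trp73, a relative of p53, with 47.6 and Bpifa6 with 47.0. Cfap65, Gpr26, Adam28, Fbxo41 and Wscd1 had 44.7 to 41.1 per 100 kb. Of these 9 genes, all but Bpifa6 had at least 1 aged H3K27me3 region in the body.

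Between genes, the nearest start site was most often that of Tcerg1l, with 142 intergenic regions, then Tbx3 with 123, Wscd1 with 109, Gm4791 with 107 and Med13l with 90. Tbx3, a T-box transcription factor gene of limb and heart development, and Med13l, a Mediator subunit gene, held no such region in their own bodies. They face each other across 905 kb of chromosome 5 that hold no other protein-coding gene (chr5:118765439-119670668, an interval chosen after its values were seen). In it lay 286 young H3K27me3 regions, of which 230 were young-only distal regions (254 per Mb). The aged lists held 103 H3K27me3 and 23 H2AK119ub1 regions there.

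Gene groups differed widely. The share of genes with a young-only distal region in the body is set beside 13.7% of all protein-coding genes, whose median body is 16.8 kb with 15.6 regions per Mb of body. Of 41 glutamate and GABA receptor genes, 32 held one (78.0%, 63.3 to 88.0), of 57 genes of synaptic and neural adhesion 38 (66.7%, 53.7 to 77.5), of 131 voltage-gated channel genes 85 (64.9%, 56.4 to 72.5) and of 90 cadherin and protocadherin genes 50 (55.6%, 45.3 to 65.4). These genes are long, with median bodies of 138, 371, 45.3 and 95.2 kb. Per Mb of body they held 29.0, 18.6, 48.1 and 28.1 regions. Aged H3K27me3 was common in the same lists. An aged region, of any width or place, lay in the bodies of 26, 36, 75 and 37 of these genes, against 2324 of all 20807. Per Mb of body there were 8.74, 6.76, 12.1 and 12.1 aged regions, against 7.35 in all genes. A young-only distal region and no aged one were found in 9, 7, 22 and 17 genes. Protocadherin genes of a cluster share exons and bodies, so their genes are not independent.

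The examples with the most regions were Grik4 (69), Grik3 (68) and Gria1 (43) among the receptors, which carry fast excitatory signals. Among adhesion genes they were Csmd2 (74), Opcml (71) and Dlgap2 (52), among channels Kcnma1 (94), Kcnip1 (45) and Cacna1e (40), and among cadherins Cdh4 (69), Cdh13 (62) and Cdh22 (40). In Gria1, which encodes an AMPA receptor subunit, the aged list held only 2 regions against 46 young ones, whereas in Grik3 it held 31 against 92.

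Developmental transcription factor genes are short (median body 5.37 kb) and classical Polycomb targets. Of 140, 39 (27.9%, 21.1 to 35.8) held a young-only distal region in the body, at 77.0 per Mb, and 109 held an aged H3K27me3 region, at 200 per Mb. These counts used unlike filters and cannot be compared directly. Young-only distal regions exclude wide regions, those near start sites and those that overlap an aged region, whereas all aged regions were counted. Only 5 of the 39 had no aged region in the body. Counting also genes whose start site was the nearest to an intergenic member, 93 of the 140 (66.4%) were reached, against 25.2% of all genes. Pax5 held the most (35 regions, 23 aged regions in the body), then Pax3 (28 and 20), Pax7 (24 and 22) and Pax2 (14 and 37).

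Most blood genes held no region in the body, which is also true of most protein-coding genes. Of 33 stem cell and blood transcription factor genes, 6 held one (18.2%, 8.61 to 34.4, against 13.7% of all genes), at 27.3 regions per Mb of body against 15.6, and all 6 also held aged H3K27me3. Counting nearest genes too, 33.3% of the 33 were reached, against 25.2% of all genes. Besides Pax5, the master regulator of B cells, these were Ebf1 (20 regions, 7 aged), Bcl11b (19 and 13), Ikzf3 (4 and 5), Erg (2 and 2) and Gfi1 (1 and 1). Pax5, Ebf1, Bcl11b and Ikzf3 are known for their roles in lymphocytes, and Pax5 is also in the developmental list. Runx1, Meis1, Mecom, Tal1, Myb and Spi1, which act in stem cells and were picked from the list after its values were seen, held 0 in the body. So did Tcf7, Gata3, Ikzf1 and Tcf3 of the same list, which act in lymphocytes, while Erg and Gfi1 also act in stem cells. Whether the list splits by lineage was not tested. Of 32 genes of mature blood cells, 1 held regions (3.12%, 0.554 to 15.7, 12.6 regions per Mb of body), namely Cd3e, a subunit of the T cell receptor complex, with 6 regions and no aged H3K27me3 region in its 10.9 kb body. The interval includes the 13.7% of all genes, and these 32 genes are short (median body 6.94 kb against 16.8 kb). Counting nearest genes too, 25.0% of the 32 were reached, against 25.2% of all genes. The start site of Csf3r, the G-CSF receptor gene, was the nearest to 57 intergenic members, a gene named after its values were seen.

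Of 14 genes known to rise in aged stem cells, such as Selp, Clu and Vwf, 0 held a young-only distal region. This allows a share of up to 21.4% by counting error, above the 13.7% of all genes, and 1 was the nearest gene of an intergenic member. No cytosolic ribosomal protein gene held one either (0 of 84, up to 3.57%). These genes are short (median body 3.17 kb), and of the 5202 shortest protein-coding genes only 4.86% held one. Counting nearest genes too, 13.1% of the 84 were reached, against 25.2% of all genes. The 84 include Rpl10-ps3, a pseudogene by its symbol, whose start site was the nearest to 19 intergenic members. Olfactory and vomeronasal receptor genes, which are silent in blood and lie in AT-rich clusters, are short too (median body 6.25 kb). Of 1472, 66 held one (4.48%, 3.54 to 5.66), near the share of the shortest genes. They held 8.94 regions per Mb of body, against 15.6 in all genes. HSCs were assayed in bulk, so fewer cells with the mark and less of the mark per cell cannot be told apart in any of these lists.

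**Figure D5:**
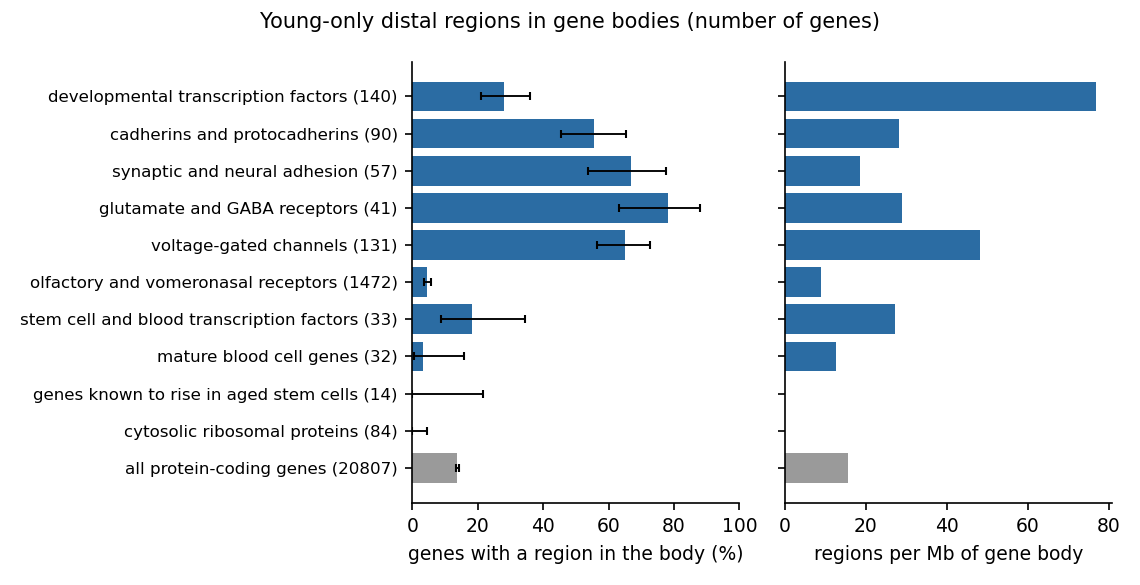
Left, share (%) of the genes of each list with a young-only distal region in the body, with Wilson 95% intervals and the number of genes in parentheses; right, regions per Mb of gene body. Receptor, channel and adhesion genes stand highest on the left and developmental transcription factors on the right (77.0 per Mb), beside 13.7% and 15.6 per Mb for all protein-coding genes (grey), while 2 lists have none.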

How the data were processed

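The authors cross-linked the cells, digested chromatin with micrococcal nuclease, sonicated it, and aligned single reads to mm10 with Bowtie2. MACS2 2.2.6 is listed in the submitters' processing notes, but its settings are not given in the sources used here. By the layout of their format, which has no header, the deposited broad lists give each region's fold enrichment as a linear ratio and the −log10 of its p-value and q-value, averaged over the region. Region names in the broad lists carry only 1 library number, so it is unclear whether both replicates entered. Pooling, duplicate reads, multiply aligned reads and the caller's threshold all bear on which regions are listed.

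Overlaps, gaps and chains were computed in Python 3.11.15 (numpy 2.4.6, pandas 2.3.3, scipy 1.17.1), tested on simulated intervals, and the overlap of the H3K27me3 lists was checked with bedtools 2.31.1. Genes came from GENCODE M21 basic (on chromosomes 1 to 19, 20807 protein-coding genes and 39515 start sites of protein-coding transcripts). A region was placed by its midpoint in the order exon, intron, intergenic over all genes. Sequence was read with pysam 0.24.0 from the RefSeq copy of GRCm38 (mm10), and plots were drawn with matplotlib 3.10.9. Shares carry Wilson 95% intervals and medians order-statistic intervals.

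Genes were named by rank: the 10 with the most regions in the body, the 10 densest, the 5 nearest to most intergenic regions, and 2 to 4 of those with the most regions in a gene list. Of 10 lists given by symbol, 2 held no such gene and the olfactory list is given as counts, and all 6 such blood transcription factors are named. Chains (the 5 with the most regions, the 3 longest), the 5 fullest windows and the 3 strongest, widest and most enriched regions were named likewise, and 2 items that these rules name are not reported here. The regions and gene lists were chosen with earlier results of these data known. Other settings tried were a stricter q-value, lists of equal length, a 1 kb distance from aged regions, joining, other placing, other gaps and, added later, an equal lowest p-value.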

Additional observations from a re-analysis of the deposited data

How the results depend on the processing

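No paired analysis was possible because only 1 pooled list stood for every mark and age. Of 50 values recomputed, 18 were close to the reported value (shares and medians within its 95% interval, counts within 1.5 times), 32 moved and 0 reversed. Counts, shares and medians of this kind have no sign, so none of them could reverse. At −log10 q-values from 3 up, 3148 regions remained, 21.3% with another within 5 kb, 5.50% with aged H2AK119ub1, 0.445% with young H3K4me3 and a median GC content of 45.9%. With the young list cut to the length of the aged list over all chromosomes, which left 17536 against 15926 regions on chromosomes 1 to 19, these were 10291 regions, 47.1%, 4.50%, 0.262% and 45.8%, with 42.9% in introns. Fewer regions leave fewer neighbours by construction. Without regions within 1 kb of an aged one, 73.6% had a neighbour, 2.15% aged H2AK119ub1, 3.36% lay in exons and GC content was 45.5%. Joining young regions within 1 kb gave 22172 regions, 53.6% intergenic, 2.90% in exons, 53.1% with a neighbour, 1.68% with aged H2AK119ub1, 0.122% with young H3K4me3 and 45.2% GC. Placing by any overlap gave 40.7% in introns and 6.97% in exons, and protein-coding genes alone gave 61.7% intergenic, 36.1% in introns and 2.29% in exons. A 20 kb gap gave 91.1% with a neighbour, any young region as neighbour 82.0%, and, chosen after seeing the data, an equal lowest −log10 p-value 76.4%. Counting marks within 1 kb gave 7.09% for aged H2AK119ub1 and 0.650% for young H3K4me3. The cause of the other shifts was not tested. The lists give no read counts, so depth is unknown and a region missing from the aged list may lie below its threshold.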
